A study of Mus musculus with 8 samples.

Results

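Livers of mice with the wild-type PPARα and of mice homozygous for its V227A form were profiled by RNA sequencing, and 38 of the 27179 genes in the resulting table belong to glucose production, glycolysis, fructose entry, glucose transport and glycogen metabolism. These genes were picked by symbol for what they encode, and all 38 symbols were found. PPARα is a nuclear receptor that switches on fatty acid use in the fasting liver, and the V227A form replaces a valine of the receptor with alanine. The groups were 4 wild-type and 4 V227A libraries, each from the liver of an adult male C57BL/6NHsd mouse, and the mice were fasted for 6 h. The V227A line was made by base editing of zygotes, so that every cell carried the change, and it descends from a heterozygous founder that was backcrossed to the same strain. Wild-type and homozygous mice from crosses of heterozygotes were compared in the study. The value used here is the authors' average over all 8 libraries. Values of single libraries were not used here, so levels carry a counting error and no spread between mice, and the wild-type and V227A groups were not compared.

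The liver makes glucose in fasting and stores or burns it after a meal. Gluconeogenesis and glycolysis share most of their enzymes, which work in both directions, and differ at a few steps where each direction has its own enzyme. Pyruvate carboxylase and PEP carboxykinase bypass pyruvate kinase, fructose bisphosphatase opposes phosphofructokinase, and glucose-6-phosphatase opposes the hexokinases. Glycogen synthase and glycogen phosphorylase oppose each other in the same way at the glycogen store. Several of these steps exist as isoenzymes from separate genes, of which hepatocytes are known to use a particular set.

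The average level was deposited as log2 CPM, where CPM is the count of a gene's reads per 1000000 reads of a library. It was turned back into CPM and, for comparison between genes, divided by the length in kilobases (kb) of the longest coding transcript. The mean effective library size read from the table was 27473997 reads, and the median gene with reads had 100.1 reads per library. Of the 38 genes, 37 lay above 1 CPM, against 61.8% of the 18937 genes with reads. Their median was 6.50 on the log2 CPM scale, and the median over all genes with reads was 1.89. Per kb, the median level of the 38 genes was 24.2 CPM, against 1.99 CPM over the 15930 genes with reads and a length, and 18 of the 38 stood above the 90th percentile of those genes. Together the 38 genes took 0.945% of all reads.

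The tissue carried the transcripts of hepatocytes, since all 10 hepatocyte markers examined lay above 1 CPM and summed to 111020 CPM. Markers of the other liver cells were present at far lower sums, 164 CPM for Kupffer cells, 153 CPM for stellate cells, 132 CPM for endothelial cells and 35.2 CPM for cholangiocytes. Markers of red blood cells summed to 231 CPM. The 9 skeletal muscle markers summed to 3.34 CPM with 1 above 1 CPM, and the 6 adipose markers to 2.11 CPM. Neutrophil markers and markers of T and NK cells summed to 0.651 CPM and 1.81 CPM with none above 1 CPM, and B cell markers to 5.59 CPM with 2 of 5 above it. Pancreatic markers summed to 31.6 CPM, of which Cela1 alone gave 29.9 CPM, and 5 of these 8 genes had no reads. In whole tissue of this kind, fewer cells that express a gene and less of its RNA per cell cannot be told apart. The part of these other cells in the levels below was not tested.

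**Figure D1:**
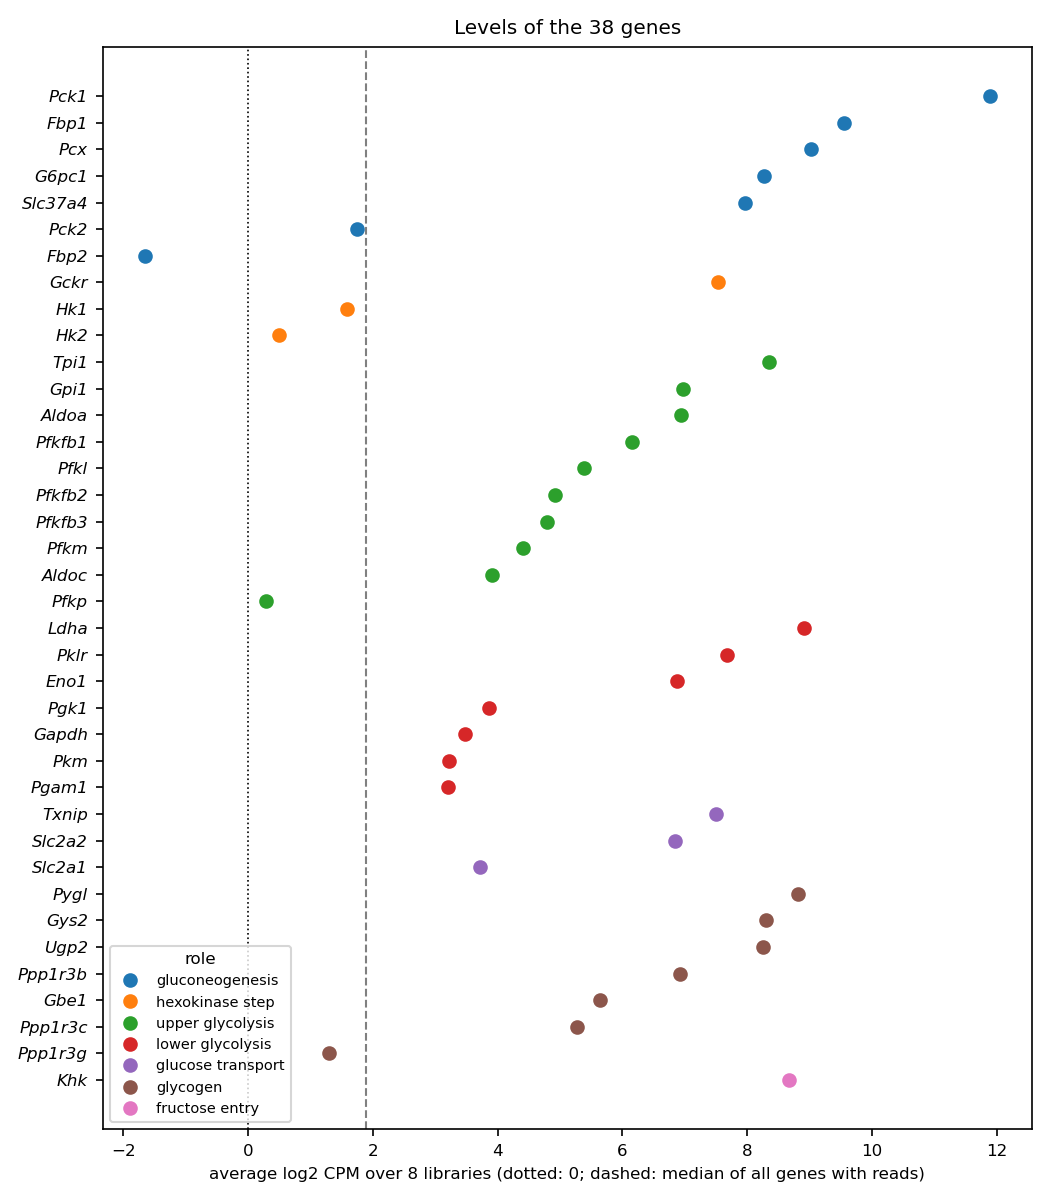
Average level of each of the 38 genes in log2 CPM over the 8 libraries, grouped and coloured by role. The dotted line marks 1 CPM and the dashed line marks the median of all genes with reads (1.89). Fbp2 is the gene to the left of the dotted line, and Pck1 stands highest at 11.89.

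The gluconeogenic genes held most of the reads of the 38 genes. The 7 genes of this role took 59.6% of them, and their median level was 125 CPM per kb, but their range ran from 0.180 to 1428 CPM per kb. Pck1, which encodes the cytosolic PEP carboxykinase that turns oxaloacetate into phosphoenolpyruvate, stood at 3799 CPM, or 1428 CPM per kb (95% counting interval 1425 to 1431). That was the highest level of the 38 genes and 40.2% of their reads, and it placed Pck1 at rank 53 per kb among all genes with a length. Fbp1, the liver form of fructose bisphosphatase, followed at 511 CPM per kb. The next genes of this role lay close together in level. G6pc1, the catalytic subunit of glucose-6-phosphatase in the endoplasmic reticulum, was at 128 CPM per kb (127 to 129). Pcx, the mitochondrial pyruvate carboxylase that supplies oxaloacetate, was at 125 CPM per kb (125 to 126). Slc37a4, which carries glucose-6-phosphate to that phosphatase, was at 107 CPM per kb (106 to 108).

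The other isoenzymes of these steps were scarce. Pck2, the mitochondrial PEP carboxykinase, was at 0.712 CPM per kb (0.661 to 0.766), so Pck1 exceeded it by 10.97 on the log2 scale, or 2004-fold. Without division by length the difference was 10.17, and with the shortest coding transcript 10.24. Fbp2, the fructose bisphosphatase known from muscle, was the lowest of the 38 genes at 0.180 CPM per kb (0.136 to 0.237). It rested on an estimated 6.70 reads per library, and Fbp1 exceeded it by 11.47 on the log2 scale (95% counting interval 11.08 to 11.86). Fbp1 and Fbp2 are neighbours in the genome. On the GRCm38 build, Fbp2 lies on the minus strand at chr13:62836877-62858422 and Fbp1 on the same strand at chr13:62864753-62888282. In these livers, the pair differed in level more than any other isoenzyme pair compared.

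The hexokinase genes were low. Hexokinases trap glucose in the cell as glucose-6-phosphate. Hk1, the form found in most tissues, was at 0.684 CPM per kb (0.632 to 0.739), and Hk2, the insulin-responsive form of muscle and fat, was at 0.242 CPM per kb (0.215 to 0.271). Hk1 exceeded Hk2 by 1.50 on the log2 scale (95% counting interval 1.30 to 1.70), and the intervals of the pair did not overlap. Without division by length the difference between Hk1 and Hk2 was 1.14, and with the shortest coding transcript 1.07. Both values lie below the interval of 1.30 to 1.70, which covers counting error only. Gckr, by contrast, encodes the nuclear protein that holds the hexokinase of hepatocytes inactive, and it was at 81.3 CPM per kb. Khk, the ketohexokinase through which fructose enters metabolism, was the fourth highest of the 38 genes at 258 CPM per kb (257 to 260), and it exceeded Hk1 by 8.56 on the log2 scale. This difference was 7.13 without division by length.

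Among the 10 genes of upper glycolysis, the median level was 9.28 CPM per kb. Tpi1, the triosephosphate isomerase that interconverts the 2 triose phosphates in both directions of the pathway, was the highest at 202 CPM per kb. Aldoa, an aldolase, was at 79.0 CPM per kb and exceeded Aldoc, the aldolase known from brain, by 3.87 on the log2 scale, or by 3.02 without division by length and 3.24 with the shortest coding transcript. Gpi1, which interconverts glucose-6-phosphate and fructose-6-phosphate, was at 43.7 CPM per kb.

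Phosphofructokinase, the committed step of glycolysis, has 3 genes, and their levels were ordered. Pfkl, the liver form, was at 11.2 CPM per kb (11.0 to 11.4), Pfkm, the muscle form, was at 7.34 CPM per kb (7.13 to 7.55), and Pfkp, the platelet form, was at 0.278 CPM per kb (0.245 to 0.314). Pfkl exceeded Pfkm by 0.61 on the log2 scale, with a counting interval of 0.56 to 0.66, and Pfkp by 5.33, or by 4.71 with the shortest coding transcript. The liver form therefore led the muscle form by only 1.53-fold. The bifunctional enzymes of the Pfkfb family make and break fructose-2,6-bisphosphate, the signal that activates phosphofructokinase and restrains fructose bisphosphatase. Pfkfb1, the liver form, was at 38.2 CPM per kb, Pfkfb2, known from heart, was at 6.82 CPM per kb, and Pfkfb3, the inducible form, was at 5.77 CPM per kb. Pfkfb1 exceeded Pfkfb2 by 2.49 and Pfkfb3 by 2.73 on the log2 scale. Without division by length these differences were 1.25 and 1.37, and with the shortest coding transcript 1.09 and 1.13. The former are smaller since the transcripts of Pfkfb2 and Pfkfb3 are longer than that of Pfkfb1.

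By level per kb of the longest coding transcript, the 7 genes of lower glycolysis fell into a high and a low set. Ldha, the lactate dehydrogenase subunit that interconverts pyruvate and lactate, was the third highest of the 38 genes at 265 CPM per kb. Pklr, the pyruvate kinase of liver and red blood cells, was at 70.8 CPM per kb, and Eno1, the main enolase, was at 57.6 CPM per kb. The other 4 genes were below 10 CPM per kb. Pgk1, a phosphoglycerate kinase, was at 7.96 CPM per kb (7.69 to 8.25), and Gapdh, the glyceraldehyde-3-phosphate dehydrogenase, was at 7.79 CPM per kb (7.48 to 8.10), and these intervals overlapped. Pgam1, a phosphoglycerate mutase, was at 5.17 CPM per kb (4.95 to 5.40). Pkm, the pyruvate kinase of muscle and most other tissues, was at 3.80 CPM per kb (3.64 to 3.97), and Pklr exceeded it by 4.22 on the log2 scale.

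**Figure D2:**
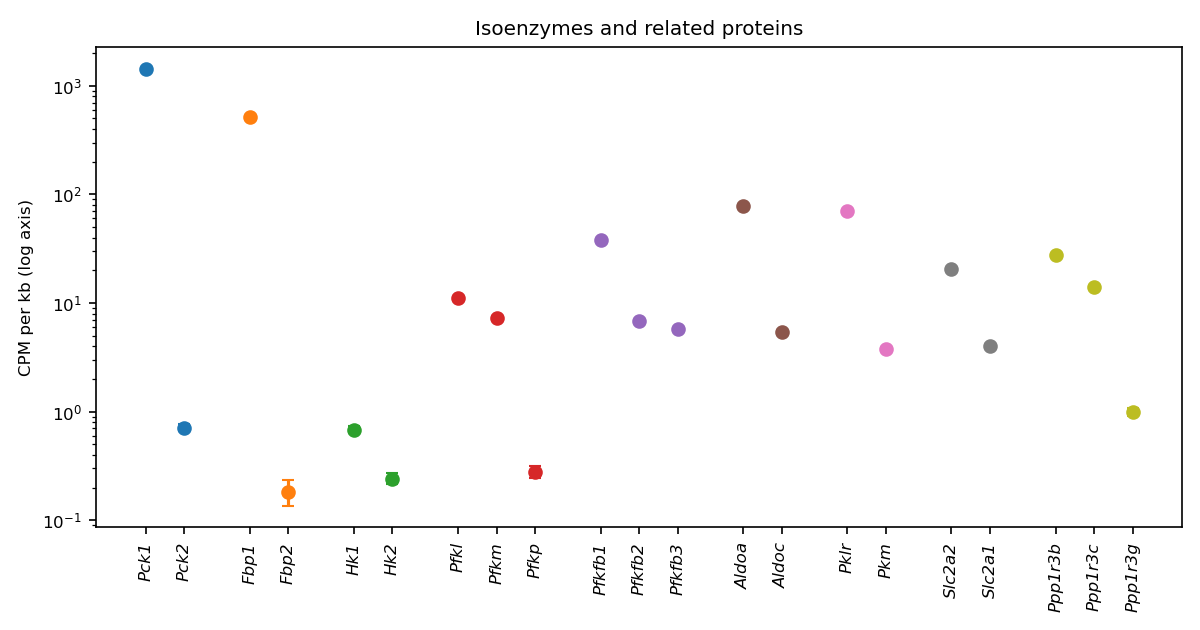
Level of isoenzymes and related proteins in CPM per kb on a log axis, with each family in its own colour and bars for the 95% counting interval, which is smaller than the symbol for most genes. The leading gene of each family stands to the left, and the pairs Pck1 and Pck2 and Fbp1 and Fbp2 are the farthest apart.

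Gapdh, Pgk1 and Pgam1 stood below Tpi1 by more than 1 order of magnitude although all 4 act in the same stretch of the pathway, so the sequence that each gene shares with other genes was examined. Of all stretches of 100 bases in the longest coding transcript, 78.05% in Gapdh were also found in a transcript of another gene. There were 86 such genes, and 81 of them are annotated as pseudogenes. The share was 67.0% in Pgk1, 59.0% in Eno1 and 39.7% in Pgam1. It was 1.28% in Ldha and 0.80% in Tpi1, and 23 of the 38 genes shared no such stretch. Reads that match several genes equally well are left out by many counting settings, and the setting that was used is not given in the sources used here. Among the genes that share sequence with Gapdh, 3 were found in the table by Ensembl identifier, and they summed to 0.188 CPM. Eno1b, a retrogene copy of Eno1, was at 6.17 CPM, against 117 CPM for Eno1. The genes sharing sequence with Pgk1 or Pgam1 were not found in the table.

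A coding stretch of 50 bases from 3 of these genes is given to show how widely it recurs. Each is the coding stretch found in the most other genes, the first along the transcript where several tie, and 84 other genes hold the stretch of Gapdh, 5 that of Eno1 and 3 that of Pgam1.
Gapdh: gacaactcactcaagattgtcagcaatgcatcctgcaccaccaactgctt
Eno1: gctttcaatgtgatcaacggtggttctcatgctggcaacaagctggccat
Pgam1: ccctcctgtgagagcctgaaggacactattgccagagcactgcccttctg
The stretch of Gapdh starts at base 655 of its transcript, inside a coding sequence that runs from base 241 to base 1239. In its Gapdh copy it lies within the gene at chr6:125161715-125166467 on the minus strand of GRCm38.

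When reads were divided by the number of stretches not shared with another gene, the level of Gapdh was 38.1, that of Pgk1 25.5, that of Pgam1 9.09 and that of Eno1 148, each as CPM per 1000 unshared stretches. On the same scale Ldha was at 284 and Tpi1 at 217. The levels of Gapdh, Pgk1 and Pgam1 were thus higher on this scale, and all 3 remained below those of Ldha and Tpi1. The division of lower glycolysis into a high and a low set was made on the level per kb and not on this scale. This scale treats every read from a shared stretch as lost, which was not tested. In other genes the shared bases lay where an annotated neighbour overlaps the gene. Pfkfb2 shared 23.9% of its stretches with Gm29427 on the same strand. On the opposite strand, Pklr shared 21.8% with Hcn3, Pfkp 16.0% with Pitrm1 and Txnip 15.1% with Gm15441. Pkm shared 9.82% and Gpi1 7.40%, each with an overlapping neighbour and with pseudogenes. The library kit marked the strand, but the strand setting of the count is not given in the sources used here. The levels of Pfkfb2, Pklr, Pfkp, Txnip, Pkm and Gpi1 are therefore uncertain over the overlapping bases.

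**Figure D3:**
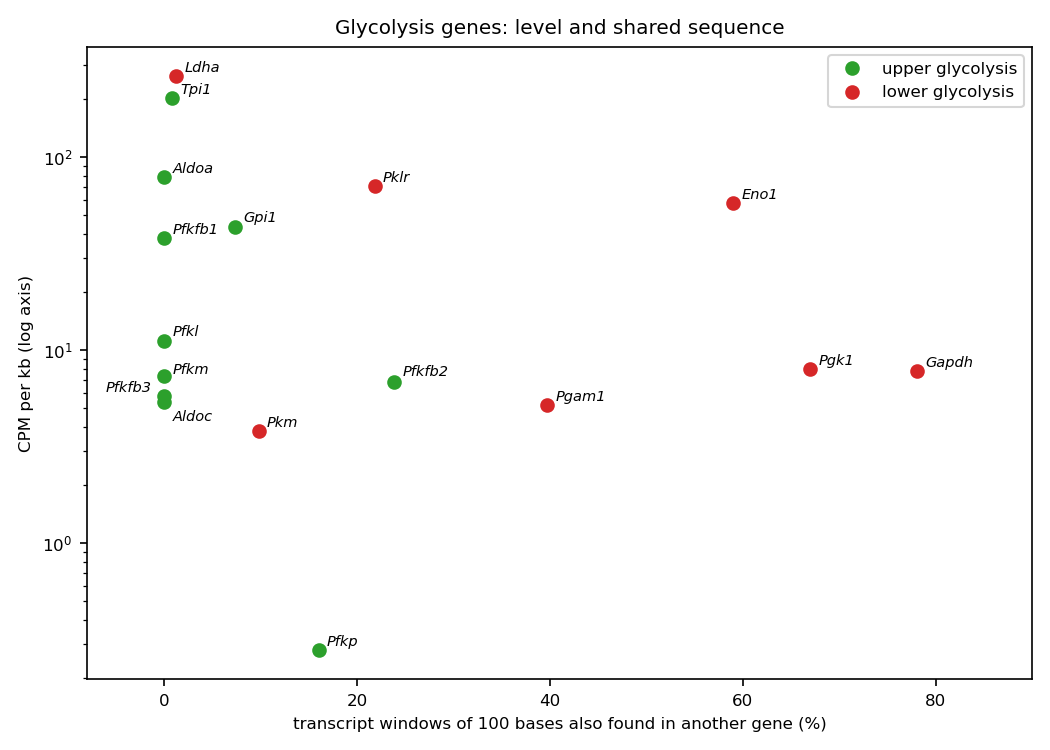
Level in CPM per kb (log axis) of the 17 glycolysis genes against the percentage of 100-base stretches of the transcript that also occur in another gene. Gapdh, Pgk1, Eno1 and Pgam1 stand to the right with 39.7% to 78.05% shared, and Ldha and Tpi1 stand at the upper left.

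In the genes of glucose transport, Slc2a2, the high-capacity glucose transporter of hepatocytes known as GLUT2, was at 20.7 CPM per kb, and it exceeded Slc2a1, the transporter GLUT1 of red blood cells and many other cells, by 2.36 on the log2 scale, or by 3.13 without division by length. Txnip, whose protein promotes removal of glucose transporters from the cell surface, was above both at 63.9 CPM per kb.

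The glycogen genes were led by the enzymes that act directly on the polymer and its precursor. Pygl, the liver glycogen phosphorylase, was at 151 CPM per kb, Gys2, the liver glycogen synthase, was at 119 CPM per kb, and Ugp2, which makes the UDP-glucose that the synthase uses, was at 114 CPM per kb. Gbe1, the branching enzyme, was lower at 15.1 CPM per kb. The targeting subunits bring protein phosphatase to glycogen and so favour synthesis. Of these, Ppp1r3b was at 27.7 CPM per kb and Ppp1r3c at 14.1 CPM per kb, a log2 ratio of 0.98. Ppp1r3g was the lowest of the glycogen genes, and Ppp1r3b exceeded it by 4.79 on the log2 scale, with a counting interval of 4.67 to 4.92. Without division by length the differences of Ppp1r3b from Ppp1r3c and Ppp1r3g were 1.66 and 5.67. The isoenzymes of other tissues were lower. Gys1, the synthase of muscle, was at 1.30 CPM per kb, and the phosphorylases Pygb, of brain, and Pygm, of muscle, were at 0.660 and 0.328 CPM per kb.

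The opposing enzymes were then set against each other, with the levels per kb of isoenzymes summed within a step. Transcripts of the glucose-producing enzyme were above those of the opposing enzyme at the 3 steps where single reactions face each other. Fructose bisphosphatase (Fbp1 and Fbp2) was above phosphofructokinase (Pfkl, Pfkm and Pfkp) by 4.76 on the log2 scale, with a counting interval of 4.74 to 4.79, or 27.1-fold, and by 3.56 without division by length. PEP carboxykinase (Pck1 and Pck2) was above pyruvate kinase (Pklr and Pkm) by 4.26 (4.25 to 4.27), or 19.1-fold. G6pc1 was above the sum of Hk1 and Hk2 by 7.11 (7.02 to 7.20), or 138-fold, and this sum does not hold the hexokinase particular to hepatocytes, so it is not the whole of the opposing step. This ratio was 6.18 without division by length and 6.43 with the shortest coding transcript.

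At the other steps the levels were closer. Gys2 was below Pygl by 1.28-fold, a log2 ratio of -0.35 with a counting interval of -0.37 to -0.34. Pcx was below Ldha by 2.11-fold, a log2 ratio of -1.08. These enzymes both act on pyruvate but do not reverse each other. That order was reversed without division by length, at a log2 ratio of 0.11, because the transcript of Pcx has 4148 bases and that of Ldha 1815, and with the shortest coding transcript the ratio was -2.45. G6pc1 was above Slc37a4, the transporter it works with, by 1.19-fold, a log2 ratio of 0.25 (0.24 to 0.27), and with the shortest coding transcript as the length the order was reversed at -0.54. The order of the last pair and of Pcx and Ldha is therefore not settled by these values. A ratio of transcripts is not a ratio of enzyme activity or of flux, and none of these ratios was compared between wild-type and V227A livers.

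**Figure D4:**
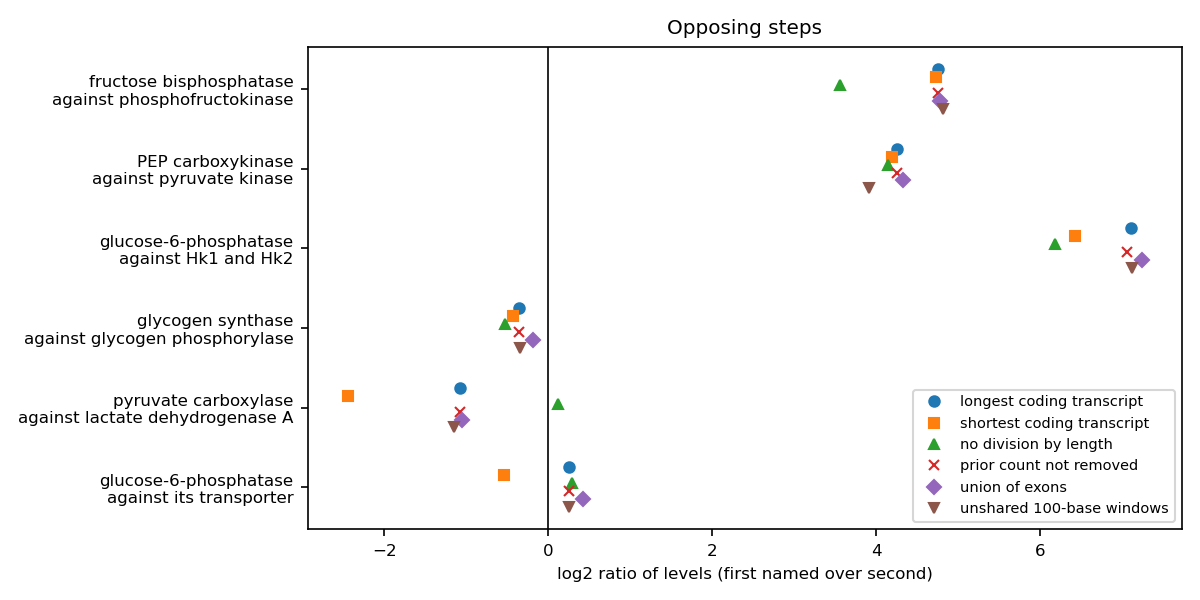
Log2 ratio of levels for 6 pairs of steps, the first named over the second, under the main setting (longest coding transcript) and the 5 others. Points right of the line at 0 are pairs whose first named step was higher, and the 3 upper pairs lie between 3.56 and 7.25 under every setting drawn.

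The base composition of the promoters was compared between the roles. RefSeq sequences on the GRCm38.p6 build were matched to 36 of the 38 genes and gave 58 start sites, and the 250 bases before each were examined. The observed count of CpG over that expected from C and G, which is high in CpG islands, had a median of 0.482 in these windows and 0.3735 in 32851 windows of all genes. It was 0.303 in the 10 windows of gluconeogenic genes, 0.399 in the 22 of upper glycolysis, 0.650 in the 12 of lower glycolysis and 0.683 in the 6 of the glycogen genes. The ranges overlapped, from 0.107 to 0.750 in gluconeogenesis and from 0.197 to 1.13 in lower glycolysis, and windows of the same gene can overlap each other.

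**Figure D5:**
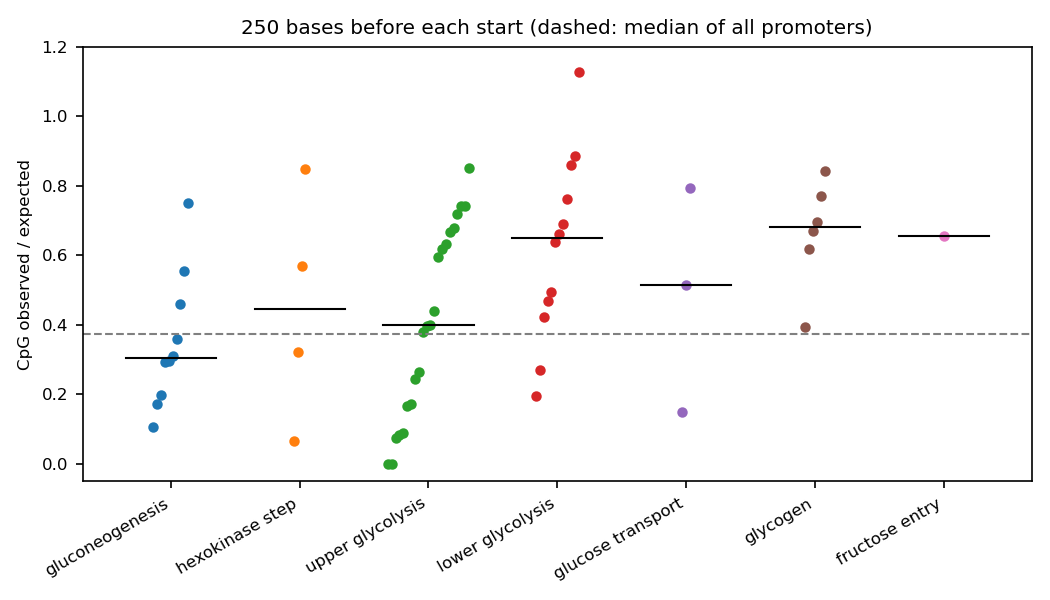
CpG observed over expected in the 250 bases before each RefSeq start site, 1 point per window and a black bar at the median of each role. The dashed line is the median of all promoters (0.3735), and the medians of lower glycolysis (0.650) and glycogen genes (0.683) lie above it.

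The windows of Pck1 and Fbp1, the highest genes of gluconeogenesis, are printed beside a high-CpG window of Hk2 and of Ldha, and the latter were picked for their values. They show the span of base composition and do not stand for their roles. The ratio was 0.310 in Pck1, 0.297 in Fbp1, 0.848 in Hk2 and 0.886 in Ldha, each over the full 250 bases. The other window of Ldha was at 0.495, the windows of Pklr, also of lower glycolysis, were at 0.197 and 0.271, and the hexokinase step had a median of 0.446, with Gckr at 0.323. The windows were searched on both strands for TATAAA (the TATA box), TGACGT (the core of the cAMP response element), CACGTG (an E-box), AGGTCA (the half-site of many nuclear receptors) and GGGCGG (the GC box), and matches are in capitals. Bases that the annotation places in an exon were left out.
Pck1: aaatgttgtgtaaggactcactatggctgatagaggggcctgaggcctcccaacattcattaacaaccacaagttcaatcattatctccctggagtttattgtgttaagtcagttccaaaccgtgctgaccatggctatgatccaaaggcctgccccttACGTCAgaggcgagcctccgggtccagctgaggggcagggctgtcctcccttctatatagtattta
Fbp1: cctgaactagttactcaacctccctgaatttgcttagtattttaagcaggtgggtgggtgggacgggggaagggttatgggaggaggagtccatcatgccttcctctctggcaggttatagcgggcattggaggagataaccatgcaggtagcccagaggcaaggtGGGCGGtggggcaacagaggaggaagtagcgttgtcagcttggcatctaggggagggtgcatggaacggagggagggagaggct
Hk2: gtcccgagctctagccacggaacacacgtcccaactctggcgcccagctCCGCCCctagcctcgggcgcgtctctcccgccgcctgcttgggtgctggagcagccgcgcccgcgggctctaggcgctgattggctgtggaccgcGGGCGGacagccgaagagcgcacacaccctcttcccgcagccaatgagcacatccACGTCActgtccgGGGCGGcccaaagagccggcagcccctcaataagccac
Ldha: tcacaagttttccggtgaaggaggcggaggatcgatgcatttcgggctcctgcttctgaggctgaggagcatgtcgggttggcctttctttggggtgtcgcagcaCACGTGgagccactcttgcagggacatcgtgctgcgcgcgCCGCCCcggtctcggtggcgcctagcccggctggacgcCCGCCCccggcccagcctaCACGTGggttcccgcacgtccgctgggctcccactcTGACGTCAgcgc
The windows lie at chr2:173152823-173153047 (plus strand), chr13:62888283-62888532 (minus), chr6:82774455-82774704 (minus) and chr7:46845554-46845803 (plus), in the order given.

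In Pck1, which glucagon is known to induce through cAMP, the response element core began 91 bases before the RefSeq start site. The 25 bases next to that site were left out of the printed Pck1 window. In Ldha the core was found on both strands in an overlapping pair, 12 and 10 bases before its RefSeq start site. The core was present in 7 of the 58 windows (12.1%), against 6.47% of all windows. The E-box was present in 8 (13.8%), against 6.02%, the GC box in 29 (50%), against 32.7%, and the nuclear receptor half-site in 11 (19.0%), against 14.0%. The TATA box was present in 4 (6.90%), against 12.4%. These shares count letters in short windows and were not tested.

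Of 51 other genes of the same pathways, 49 were in the table, 31 of them lay above 1 CPM and 3 had no reads. By group, 4 of 6 further genes of glucose production and the hexokinase step, 6 of 13 of glycolysis, 15 of 20 of glycogen metabolism and 6 of 10 of transport and fructose entry lay above 1 CPM. Sord, the sorbitol dehydrogenase that makes fructose from sorbitol, was at 512 CPM per kb, close to Fbp1. Pgm1, the phosphoglucomutase that links glycogen to glucose-6-phosphate, was at 98.9 CPM per kb, near Ugp2 and Gys2. Eno3, the enolase of muscle, was at 4.74 CPM per kb, below Eno1, and Ldhb, the lactate dehydrogenase subunit of heart, was at 1.36 CPM per kb, below Ldha.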

How the data were processed

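RNA from frozen livers was made into stranded poly-A libraries and sequenced in paired ends. The authors trimmed reads with Trimmomatic, aligned them to GRCm38/mm10 with STAR, counted them with featureCounts and tested them with edgeR. Versions and count settings are not given in the sources used here. The deposited table holds, for each gene, the average log2 CPM over the 8 libraries, with 0 columns of single libraries. Its other 4 value columns hold the authors' own comparison of V227A with wild-type (log2 fold change, F, p-value and FDR) and were not used here, so no test was run.

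The lowest value (-3.78), shared by 8242 genes, was read as 0 reads plus a prior count of 2, the default of the authors' edgeR. It gave the mean effective library size, and from it reads and CPM without the prior. Of 2378 genes with an estimated 1 to 5 reads over all libraries, 99.9% came out whole within 0.1 read. Reads estimated this way stand for a typical library. Lengths are from GENCODE vM21 on GRCm38, the same build. Intervals are exact Poisson for levels and a normal approximation for ratios, at 95%, and cover counting error only. Tables were handled with pandas 2.3.3, intervals were computed with scipy 1.17.1, plots were drawn with matplotlib 3.10.9, and the recovery of reads was tested on simulated data.

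By the rule for names, all 38 genes are named, with pathway genes by counts and isoenzymes and markers by list. The genes and lists were chosen with earlier results of these data known. The search for shared sequence, the promoter motifs and the genes whose sequence is shown were chosen after seeing the data, as were the neighbouring genes, Sord, Pgm1, Eno1b and Cela1. Some shared sequence is not reported here.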

Additional observations from a re-analysis of the deposited data

How the results depend on the processing

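The 6 opposing ratios were recomputed under 5 settings, of which the union of exons and the stretches not shared with other genes were added after seeing the data. In the order shortest coding transcript, no division by length, union of exons and unshared stretches, the log2 ratio of PEP carboxykinase to pyruvate kinase was 4.19, 4.15, 4.33 and 3.92. For fructose bisphosphatase against phosphofructokinase, the values that moved by more than the counting interval were 4.73, 3.56 and 4.81 (shortest, no length, unshared). For glucose-6-phosphatase against Hk1 and Hk2 they were 6.43, 6.18 and 7.25 (shortest, no length, union). For Gys2 against Pygl they were -0.43, -0.52 and -0.19 (the same settings). Pcx against Ldha was -2.45 with the shortest transcript, 0.11 and so reversed without length, -1.05 with the union and -1.14 with unshared stretches. G6pc1 against Slc37a4 was -0.54 and so reversed with the shortest transcript, 0.30 without length and 0.42 with the union. Each of these follows from the lengths used. Keeping the prior count moved no opposing ratio beyond its interval. A threshold of log2 CPM above 1 left 35 genes and removing the prior left 37, against 37. Of the 65 values of isoenzyme ratios under these settings, 0 changed direction and 29 moved by more than the interval.

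No paired analysis was possible because the values are averages over all libraries. For the same reason the comparison of genotypes, and with it DESeq2 size factors, the absence of a filter, leaving out each replicate and the replicate block, was not run. At a mean depth of 27473997 reads per library, counting error limits Fbp2, with 6.70 reads per library, and hardly touches genes above 1000 reads.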
